A study of Mus musculus with 3 samples.

Results

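The serpin family and its plasminogen-activating target proteases were examined in JB6 P+, a mouse epidermal cell line that tumour promoters can transform and whose label is epithelial. Members were chosen by gene symbol from the deposited count table, and the set was proposed with the gene counts of these same libraries in view, so its differences are given as a description. They were the 63 genes whose symbol carries a serpin clade letter from a to i, and 3 genes of plasminogen activation: Plau (urokinase), its receptor gene Plaur, and Plat (tissue plasminogen activator). Together they made 66 of 24421 genes. The 3 libraries were 1 untreated control, 1 of cells given 10 ng/mL of the phorbol ester TPA, and 1 of cells given 10 ng/mL TPA together with 50 nM CDDO, a synthetic triterpenoid. Cells were dosed every second day for 5 days, with serum reduced to 1% from the 10% used for growth. The serum, duration and vehicle of the control are not given in the sources used here, so that TPA and these conditions cannot be told apart in a comparison with control. The third column of the table is named for CDDO alone, and it was taken as CDDO+TPA because that is the only sample labelled with CDDO.

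Each group was 1 library, so the spread between cultures is unknown and nothing below was tested against it. Intervals are 95% intervals for counting error only. Levels are CPM, the reads of a gene per 1000000 reads of its scaled library. Where 3 values are given, the first is control, the second TPA and the third CDDO+TPA. A gene was called measured at 1 CPM or more in at least 1 library. The size rule asked of a measured gene a log2 fold change of 1 or more, up or down, together with a counting interval of the fold that did not contain 1. The libraries held 7813035 to 8190078 reads assigned to genes. The keratinocyte list of 14 genes summed to 24.3, 61.01 and 32.4 CPM. Krt5, Krt1, Krt18 and Epcam had 0 reads in every library, whereas Krt10 had 104, 73 and 52 reads, Pkp3 27, 132 and 130, Itgb4 23, 185 and 26, and Sfn 24, 78 and 26, the last 3 higher past the size rule in TPA than in control. The list of 10 mesenchymal and fibroblast genes, which includes the intermediate filament gene Vim, summed to 2972, 1906 and 2365 CPM, far above the keratinocyte list in each library.

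Serpins are a large family of protease inhibitors. An inhibitory serpin presents an exposed reactive centre loop as bait, is cut by the target protease, and then traps that protease in a covalent complex as the loop inserts into the body of the serpin. Clade a holds secreted antitrypsin-like and antichymotrypsin-like inhibitors, clade b holds mostly intracellular inhibitors, and clade e holds the inhibitors of plasminogen activators. Clade f holds alpha-2-antiplasmin and pigment epithelium-derived factor, and clade h holds a collagen chaperone that is not an inhibitor. Plasminogen activators convert plasminogen into plasmin, a protease that degrades matrix. In mice several serpin genes were multiplied into tandem clusters of paralogs, mainly on chromosomes 12 and 13.

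A few serpins held most of the serpin reads. Of the 66 members, 20 had 0 reads in every library, 46 had at least 1 read, and 28 were measured. Just inside that minimum lay Serpinb6c, with a highest level of 1.12 CPM, and just outside it Serpina3n, with 0.760 CPM. The 63 serpins together gave 976, 935 and 1210 CPM. The 5 most abundant serpins of a library held 91.2% of all serpin reads in control, 91.7% in TPA and 84.2% in CDDO+TPA. Serpinh1, Serpinf1 and Serpinb6a were among them in every library, Serpinb9b in control and CDDO+TPA, and Serpinf2 in TPA.

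**Figure D1:**
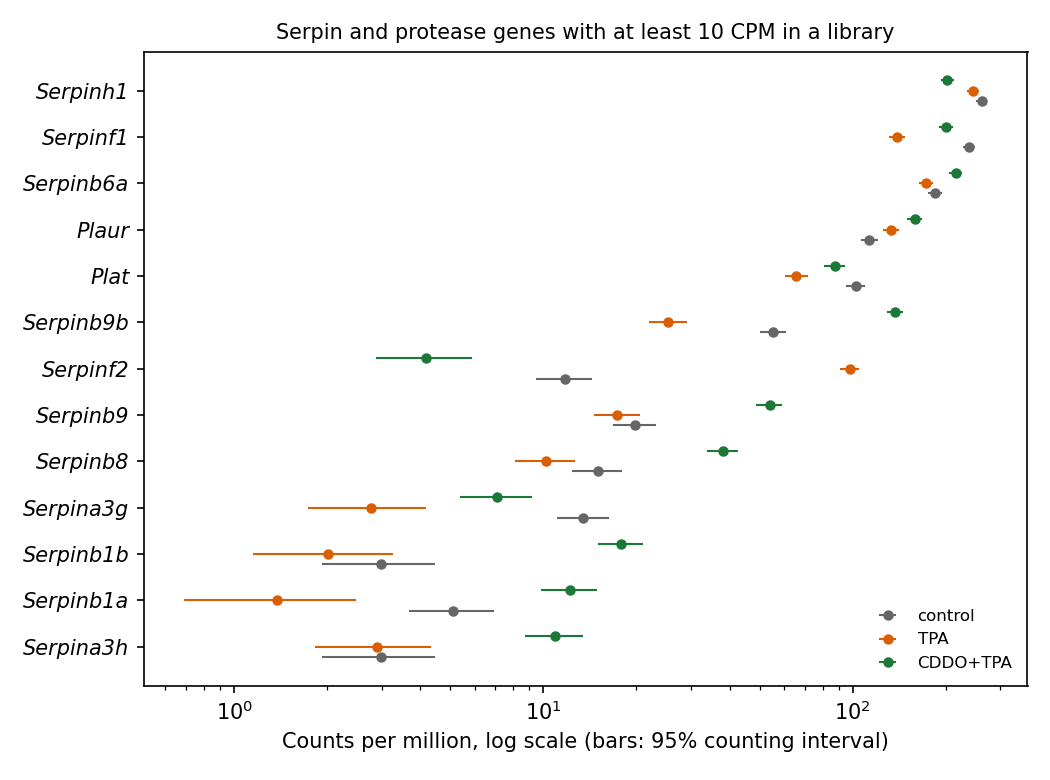
Level of 13 members with at least 10 CPM in a library, in CPM on a log axis, with 1 point per library and bars for the 95% counting interval. Serpinh1, Serpinf1 and Serpinb6a lie between 139 and 261 CPM in every library, while Serpinf2 spans 4.18 to 98.0 CPM.

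In TPA against control, 2 of the 28 measured members were higher past the size rule, Serpinf2 and Serpind1, and 4 were lower, Serpina3g, Serpina3f, Serpinb1a and Serpinb9b. Over all 13100 measured genes, 9.57% were higher and 5.91% lower in that comparison. Serpind1 reached 1 CPM in the TPA library alone and Serpina3f in the control library alone, so each could differ in 1 direction only. The other 22 measured members were not past the rule. The median log2 fold change of the 28 was -0.16, or -0.10 with genes at 0 reads set to their bound, beside 0.00 over all measured genes.

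In CDDO+TPA against TPA, 15 of the 28 measured members were higher past the rule and 3 were lower. Among all measured genes 7.87% were higher and 7.78% lower. The 15 were Serpini1, 4 genes of the Serpina3 stem and 10 genes of clade b. The 3 lower members were Serpinf2, Serpind1 and Serpinc1, all genes of inhibitors that circulate in blood plasma. Serpind1 and Serpinc1 reached 1 CPM in the TPA library alone and could differ in 1 direction only. The median log2 fold change was 1.38, or 1.26 with genes at 0 reads set to their bound, beside 0.01 over all measured genes. Likewise 6 of the 28, Serpinb7 and Serpinb9c to Serpinb9g, reached 1 CPM in the CDDO+TPA library alone and could not be lower.

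In CDDO+TPA against control, 13 measured members were higher, 11 of them from clade b, beside 8.02% of all measured genes. Of those 13, Serpinb7 and Serpinb9c to Serpinb9g reached 1 CPM in the CDDO+TPA library alone and could not be lower. Serpinf2 was the 1 member that was lower, beside 3.37% of all measured genes. The comparisons share libraries, so their counts are not independent of each other.

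**Figure D2:**
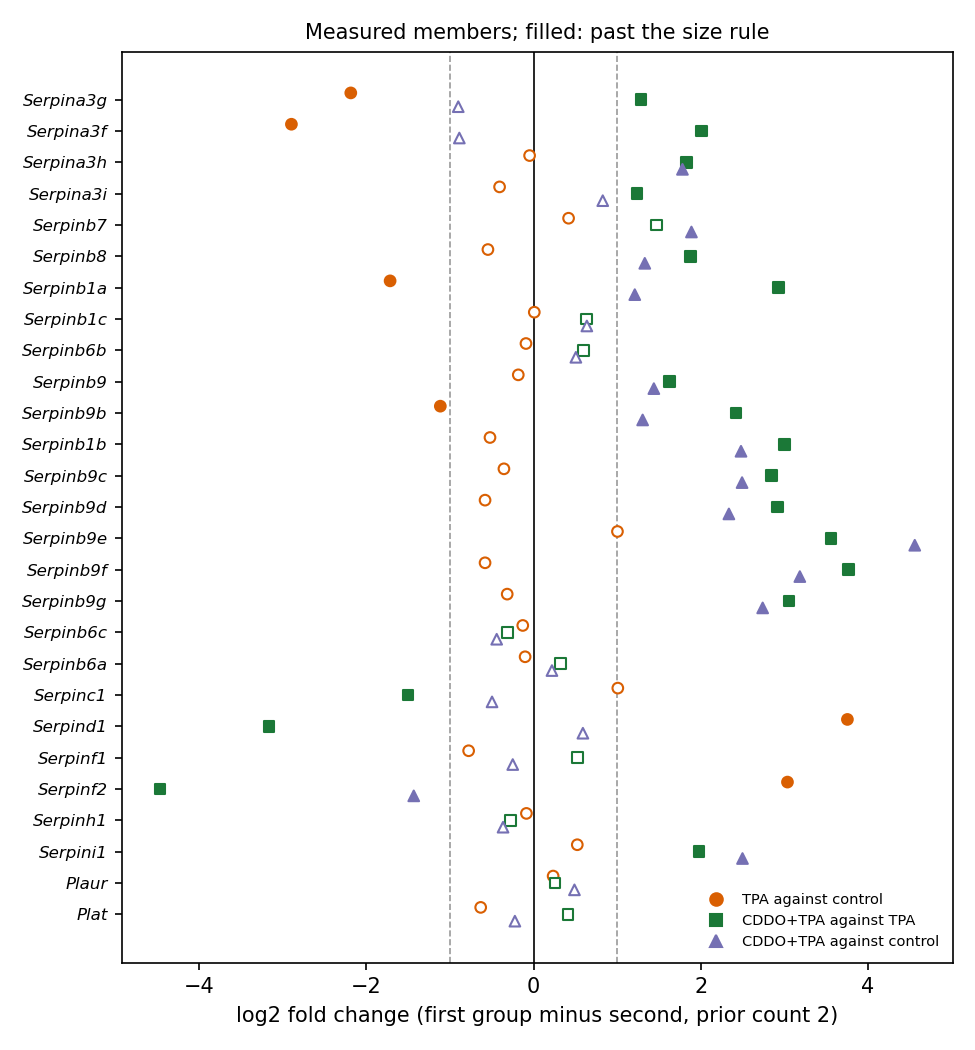
Log2 fold change of 27 of the 28 measured members in the 3 comparisons, first group minus second, with a prior count of 2. Filled symbols are past the size rule and dashed lines mark log2 fold changes of -1 and 1. Clade b genes of the Serpinb1 and Serpinb9 stems lie to the right in both comparisons of CDDO+TPA, and Serpinf2 and Serpind1 lie far to the right in TPA against control and to the left in CDDO+TPA against TPA.

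Of the plasminogen activators, Plat was expressed and Plau nearly absent. In these bulk libraries fewer cells of a kind and less RNA per cell cannot be told apart. Plat had 819, 524 and 690 reads, that is 102, 65.8 and 87.4 CPM. It was 1.55-fold lower (1.39 to 1.74) in TPA than in control and 1.33-fold higher (1.18 to 1.49) in CDDO+TPA than in TPA, both inside the size rule. Plau had 6, 2 and 1 reads, and Plau over Plat in reads per kilobase of exon was 0.00799 (0.00292 to 0.0175) in the control library. Plaur, the urokinase receptor that localises urokinase at the cell surface, had 908, 1061 and 1255 reads. Its level was thus 113, 133 and 159 CPM in cells with almost no transcript of its ligand. Plaur was 1.18-fold higher (1.07 to 1.29) in TPA than in control and 1.19-fold higher (1.10 to 1.30) in CDDO+TPA than in TPA, so no step passed the size rule.

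Of the inhibitors of plasminogen activators, Serpine2 (protease nexin-1) had 0 reads in every library. The counting intervals of those zeros reach up to 0.460, 0.463 and 0.467 CPM, and a floor of 3 counts is 0.374, 0.377 and 0.380 CPM. Serpinb2 (PAI-2), an inhibitor of urokinase and a gene well known to respond to phorbol esters in other cells, had 5, 0 and 3 reads here. Serpine3 had 6, 1 and 4 reads. In mm10 Plaur lies on chromosome 7, 24462500 to 24475873, plus strand.

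Serpinf2, the gene of alpha-2-antiplasmin, the main plasma inhibitor of plasmin, differed most between libraries among members with at least 10 CPM. It had 94, 781 and 33 reads, or 11.7, 98.0 and 4.18 CPM. The TPA library was high and the other libraries low. It was 8.36-fold higher (6.74 to 10.5) in TPA than in control and 23.4-fold lower (16.6 to 34.3) in CDDO+TPA than in TPA. It was also 2.81-fold lower (1.87 to 4.31) in CDDO+TPA than in control. Serpinf2 lies on chromosome 11, 75431736 to 75439501, minus strand in mm10, and shares no exonic base with another gene of the table.

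Its neighbour Serpinf1, the gene of pigment epithelium-derived factor, a secreted anti-angiogenic serpin with no known protease target, was lowest in the TPA library, and differed by less. Serpinf1 had 1911, 1107 and 1582 reads. It was 1.72-fold lower (1.59 to 1.85) in TPA than in control and 1.44-fold higher (1.33 to 1.56) in CDDO+TPA than in TPA, inside the size rule. It held up to 1.28 reads per exonic base. At such a density removal of duplicates, for which the columns bear a tag, can cap a count if done by position. Serpinb6a, Plaur and Serpinh1 held up to 0.900, 0.899 and 0.856 reads per exonic base. A ratio within a library does not depend on the scaling between libraries. Serpinf2 over Serpinf1 in reads per kilobase was 0.0335 (0.0270 to 0.0413) in control, 0.481 (0.438 to 0.527) in TPA and 0.0142 (0.00975 to 0.0201) in CDDO+TPA, and the 3 intervals do not overlap. The sum of both genes was 250, 237 and 205 CPM and hides the difference between them. Of the neighbouring genes, Wdr81 had 2480, 2732 and 2108 reads and was not past the rule. Tlcd2, farther along on the same side, had 23, 68 and 25 reads, past the rule in the directions of Serpinf2, higher in TPA than in control (log2 fold change 1.49) and lower in CDDO+TPA than in TPA (-1.36).

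**Figure D3:**
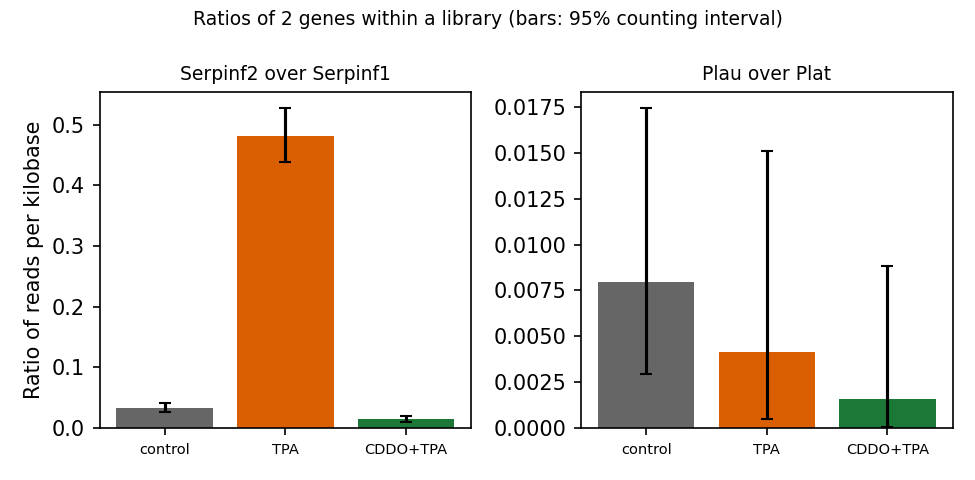
Ratio of reads per kilobase of exon between a pair of genes within each library, with 95% counting intervals as error bars. Serpinf2 over Serpinf1 was 0.481 in TPA and at most 0.0335 elsewhere, and Plau over Plat was at most 0.00799 with wide, overlapping intervals.

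Serpind1 (heparin cofactor II) and Serpinc1 (antithrombin), inhibitors of thrombin, were also highest in the TPA library but at low levels. Serpind1 had 0, 25 and 1 reads. It was at least 8.38-fold higher in TPA than in control against a floor of 3 counts in the control library, and 24.8-fold lower (4.05 to 1017) in CDDO+TPA than in TPA. Serpinc1 had 8, 18 and 5 reads, was 2.26-fold higher in TPA with an interval from 0.936 to 6.02, and was 3.57-fold lower (1.28 to 12.3) in CDDO+TPA than in TPA. Serping1, the inhibitor of complement C1 proteases, had 4, 1 and 0 reads. Hepatocyte markers were checked because these inhibitors are made mainly by liver: the 5 genes summed to 3.74, 2.13 and 7.10 CPM, Ttr had 0 reads in every library and Alb had 0, 0 and 1. Most hepatocyte-list reads came from 2 other genes, at up to 27 reads each and both higher past the rule in CDDO+TPA than in TPA, among them Afp with 1, 7 and 27 reads. The 5 endothelial genes summed to 50.7, 292 and 199 CPM, nearly all from Vwf with 49.9, 290 and 198 CPM. Pecam1 had 2, 13 and 5 reads, and Cdh5, Kdr and Tek had at most 3 reads in any library. Both Vwf and Pecam1 were higher past the size rule in TPA than in control. Of the keratinocyte list, Itgb4 and Sfn had the order of libraries of Serpinf2 and Serpind1 in that TPA was highest, with values given above. The part of these marker genes in the values of Serpinf2 and Serpind1 was not tested.

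The clade b cluster on chromosome 13 held the largest group of members that were higher with CDDO. It spans 32842092 to 34002794 and holds 15 serpin genes, of which 14 had a read and 13 were measured. In CDDO+TPA against TPA 9 of the 13 were higher past the rule and 0 lower, beside 7.87% and 7.78% of all measured genes, and in CDDO+TPA against control the counts were also 9 and 0. Of those 9, the 5 genes Serpinb9c to Serpinb9g were measured through the CDDO+TPA library alone and could not be lower, so the split is a description. In TPA against control 0 were higher and 2 lower, Serpinb1a and Serpinb9b. The 15 genes summed to 2197, 1784 and 3675 reads, a 2.08-fold difference (1.96 to 2.20) between CDDO+TPA and TPA. Serpinb6a held most of those reads in control and TPA, with 1483 and 1373, and 1700 of the 3675 in CDDO+TPA. Without Serpinb6a the sum was 4.85-fold higher (4.36 to 5.41) in CDDO+TPA than in TPA. That sum without Serpinb6a was 1.73-fold lower (1.53 to 1.95) in TPA than in control.

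**Figure D4:**
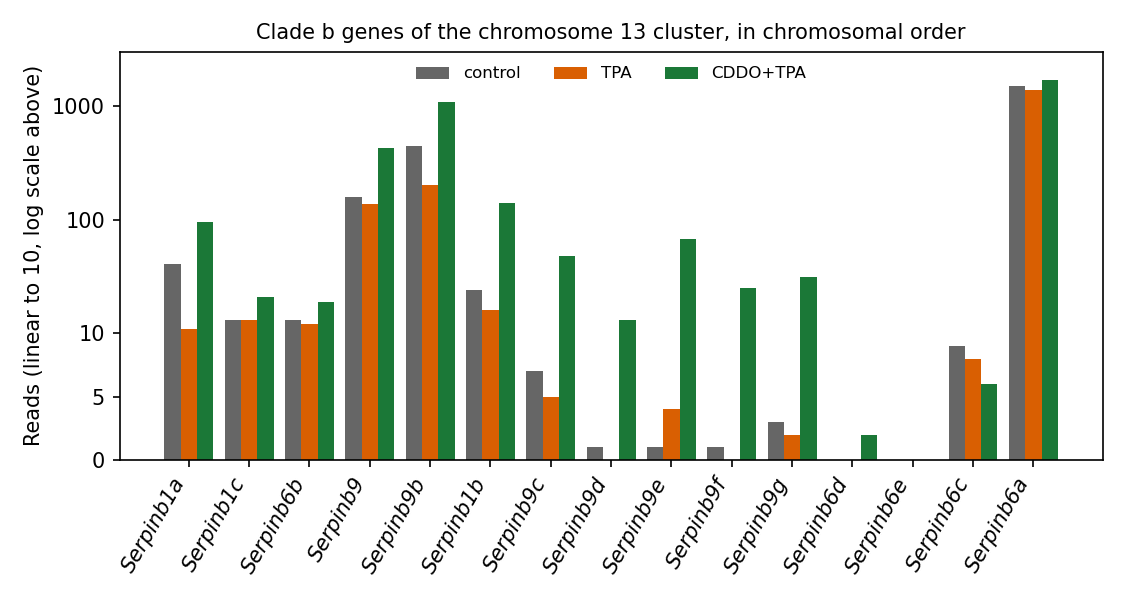
Reads of the 15 clade b genes of the chromosome 13 cluster in the 3 libraries, in chromosomal order, on an axis that is linear to 10 reads and logarithmic above. The CDDO+TPA bar is the highest at every gene of the Serpinb9 and Serpinb1 stems, from 13 reads for Serpinb9d to 1080 for Serpinb9b, while Serpinb6a is tall in all libraries.

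Within that cluster the Serpinb9 stem carried most of the difference. Serpinb9 encodes an intracellular inhibitor of granzyme B that protects cells from the proteases of cytotoxic lymphocytes, and the mouse has several further copies. Serpinb9b had 443, 202 and 1080 reads. It was 2.18-fold lower (1.84 to 2.59) in TPA than in control, and 5.40-fold higher (4.64 to 6.30) in CDDO+TPA than in TPA. It was 2.48-fold higher (2.21 to 2.77) in CDDO+TPA than in control, so that the CDDO+TPA library was the highest of the 3. Serpinb9 itself had 158, 138 and 425 reads, with control and TPA close together, and was 3.11-fold higher (2.56 to 3.79) in CDDO+TPA than in TPA.

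The remaining copies were near 0 in control and TPA. Serpinb9c had 7, 5 and 48 reads, a level 9.69-fold higher (3.88 to 31.2) in CDDO+TPA than in TPA. Serpinb9e had 1, 4 and 68 reads, a level 17.2-fold higher (6.40 to 64.8) in the same comparison. Serpinb9g had 3, 2 and 31 reads, a level 15.6-fold higher (3.98 to 135) there. Serpinb9d with 1, 0 and 13 reads and Serpinb9f with 1, 0 and 25 reads were at least 4.37-fold and at least 8.41-fold higher in CDDO+TPA than in TPA, against a floor of 3 counts in the TPA library. Every one of the 7 genes of the stem was thus highest in the CDDO+TPA library. Summed, the stem had 614, 351 and 1690 reads, a level 4.86-fold higher (4.33 to 5.47) in CDDO+TPA than in TPA.

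The coding sequence of the reactive centre loop, the part that sets which protease a serpin can trap, is shown for these 7 genes because their reads differ together while their loops differ in sequence. Each stretch runs from the hinge of the loop to the codon before the conserved motif that follows it, as found by a script on GENCODE M21 transcripts of GRCm38, and lies in 1 exon. Capitals mark bases that differ from Serpinb9e in the genes whose stretch has the same length of 69 bases. Serpinb9 and Serpinb9b have stretches of 63 and 72 bases and are written without capitals.
Serpinb9, chr13:33015699-33015761, plus strand: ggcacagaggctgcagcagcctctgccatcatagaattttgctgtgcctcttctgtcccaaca
Serpinb9b, chr13:33039802-33039873, plus strand: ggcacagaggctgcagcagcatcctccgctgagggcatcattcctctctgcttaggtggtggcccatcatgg
Serpinb9c, chr13:33150065-33150133, minus strand: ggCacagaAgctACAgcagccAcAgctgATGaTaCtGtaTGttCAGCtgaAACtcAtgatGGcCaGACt
Serpinb9d, chr13:33202929-33202997, plus strand: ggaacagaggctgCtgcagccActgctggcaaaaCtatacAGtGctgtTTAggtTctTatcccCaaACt
Serpinb9e, chr13:33259977-33260045, plus strand: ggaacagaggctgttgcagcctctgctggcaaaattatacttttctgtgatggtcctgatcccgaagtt
Serpinb9f, chr13:33334497-33334565, plus strand: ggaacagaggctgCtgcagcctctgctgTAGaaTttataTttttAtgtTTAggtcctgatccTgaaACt
Serpinb9g, chr13:33495127-33495195, plus strand: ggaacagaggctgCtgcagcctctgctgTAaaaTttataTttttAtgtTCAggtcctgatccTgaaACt

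Relative to Serpinb9e, 12 of the 69 bases differed in Serpinb9g, 13 in Serpinb9f, 14 in Serpinb9d and 29 in Serpinb9c. Over the aligned coding sequence, pairs of the stem were 76.8% to 98.7% identical, with a median of 82.0% over 21 pairs. How far such similarity can mix reads was read from windows of 50 bases. Of the windows in Serpinb9 and Serpinb9b transcripts, 0.378% and 0.388% also occur in another gene of the stem, and none of those in Serpinb9c. The shares were 30.8% for Serpinb9d, 28.4% for Serpinb9e, 52.8% for Serpinb9f and 44.5% for Serpinb9g. Values of the last 4 genes singly are therefore uncertain, and without them the stem was 4.54-fold higher (4.04 to 5.12) in CDDO+TPA than in TPA.

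**Figure D5:**
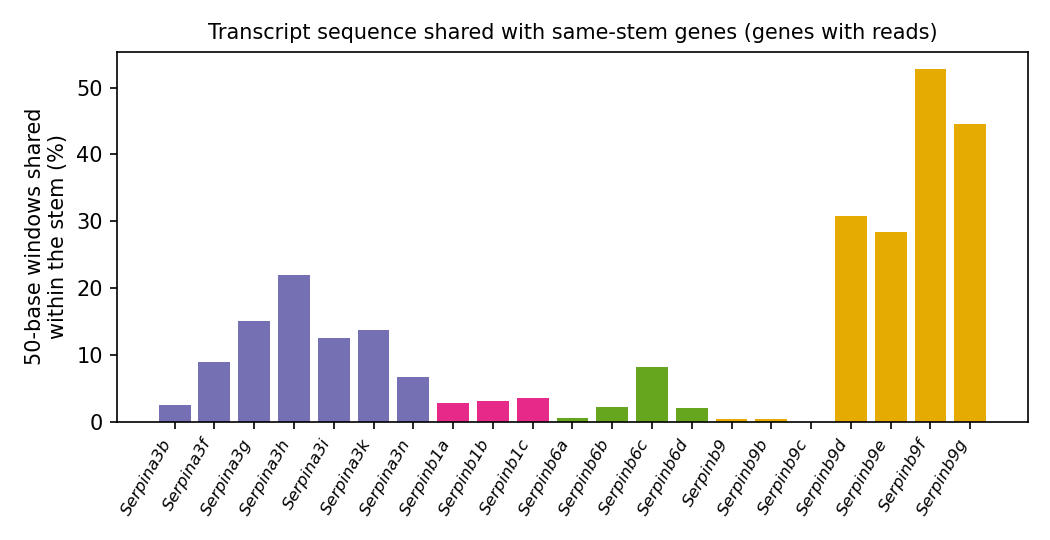
Share of 50-base windows in the transcripts of each gene that also occur in another gene of the same stem, in percent, for genes of 4 stems that had reads. Serpinb9d to Serpinb9g lie between 28.4% and 52.8%, Serpina3h at 21.9%, and Serpinb9, Serpinb9b and Serpinb9c below 0.40%.

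The Serpinb1 stem, whose human counterpart inhibits neutrophil elastase and related proteases, followed the same order of libraries. Serpinb1a had 41, 11 and 96 reads. It was 3.71-fold lower (1.87 to 7.99) in TPA than in control and 8.81-fold higher (4.71 to 18.2) in CDDO+TPA than in TPA. Serpinb1b had 24, 16 and 141 reads, a level 8.89-fold higher (5.29 to 16.0) in CDDO+TPA than in TPA, with control and TPA not separated (1.49-fold lower, 0.760 to 3.00). Serpinb1c had 13, 13 and 21 reads and was not past the rule in a comparison. The windows shared within the stem were 2.77% to 3.59%. Assignment of reads to the wrong copy was not examined.

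The Serpinb6 stem, in the same cluster, differed little. Serpinb6a, an intracellular inhibitor expressed in many tissues, had 1483, 1373 and 1700 reads. It was 1.07-fold lower in TPA than in control (0.997 to 1.16) and 1.25-fold higher (1.16 to 1.34) in CDDO+TPA than in TPA. Serpinb6b had 13, 12 and 19 reads, Serpinb6c had 9, 8 and 6, Serpinb6d had 0, 0 and 2, and Serpinb6e had 0 in every library. Serpinb6a shares 52 exonic bases, 2.75% of its length, with 1110046J04Rik on the other strand, and the table was counted with no strand option named.

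Genes that are not serpins, inside and beside the cluster, had mixed patterns. Inside the span of the cluster lies Nqo2, a quinone reductase gene, with 278, 191 and 504 reads, higher past the rule in CDDO+TPA against TPA (log2 fold change 1.40). On the centromeric side, Wrnip1 had 575, 969 and 709 reads and Foxc1 had 320, 319 and 223 reads. On the other side, Ripk1 had 1000, 1234 and 1295 reads and Tubb2b had 106, 82 and 177 reads, the latter past the rule in CDDO+TPA against TPA (log2 fold change 1.10). Foxf2, on the centromeric side, had 584, 1229 and 583 reads, the opposite order. It was past the rule as higher in TPA than in control (log2 fold change 1.08) and lower in CDDO+TPA than in TPA (-1.06). Because several clade b and Serpina3 genes are prominent in leukocytes, leukocyte markers were checked: of 10 genes 5 had 0 reads in every library, including Ptprc and Cd3e. The list summed to 45.9, 59.5 and 76.8 CPM, nearly all from Cd68 (177, 416 and 562 reads) and Cd74 (189, 54 and 43 reads). Cd68 was highest in the CDDO+TPA library, as the Serpinb9 genes were, and its part in their values was not tested. The mesenchymal list, at 2972, 1906 and 2365 CPM, was lowest in TPA, as the sum of the Serpinb9 stem was, but highest in control. Its part in the values of the Serpinb9 genes was not tested.

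The second clade b cluster, on chromosome 1 from 106861180 to 107608978, holds 12 genes and was nearly silent apart from Serpinb8. Serpinb8, an intracellular inhibitor that can bind furin, had 120, 81 and 300 reads. It was 1.47-fold lower (1.10 to 1.98) in TPA than in control, inside the size rule, and 3.74-fold higher (2.92 to 4.84) in CDDO+TPA than in TPA. It was 2.54-fold higher (2.05 to 3.16) in CDDO+TPA than in control. Serpinb7 had 1, 2 and 9 reads, a 9.14-fold difference between CDDO+TPA and control with an interval from 1.27 to 401. Serpinb5 (maspin), an epithelial serpin, had 1, 4 and 2 reads, and Serpinb12, Serpinb13, Serpinb3a, Serpinb3c and Serpinb3d had 0 in every library.

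Promoter sequence was examined because TPA acts through protein kinase C on AP-1 and CDDO derivatives act on NRF2, as background. RefSeq promoters of GRCm38.p6, 250 bases before to 50 after a start site, were matched for 53 of the 66 members. The pattern TGANTCA, an AP-1 site with any base allowed in the middle, was searched on both strands. It occurred in a promoter of 12 of those 53 genes (22.6%) and of 8.97% of all 27025 genes with a promoter. Among the 12 are the paralogs Serpina1a to Serpina1d, whose matches begin 229 to 240 bases before the start site. These copies were counted singly. In the chromosome 1 cluster the pattern occurred in 7 of 11 genes with a promoter, in the chromosome 13 cluster in 0 of 14. Of those 7 genes, only Serpinb7 and Serpinb8 hold TGAGTCA. Serpinb2, Serpinb5 and Serpinb10 hold TGAATCA, Serpinb12 holds TGATTCA, and Serpinb11 holds both of these looser forms. Genes of the chromosome 1 cluster with the pattern included Serpinb2, Serpinb5, Serpinb10 and Serpinb11, which had at most 5 reads. Serpinb12 held it with 0 reads in every library. The antioxidant response element core TGACNNNGC occurred in 3 of the 53 member genes (5.66%), Serpinb6a, Serpinb12 and Serpind1, beside 13.99% of all genes. The NF-kB consensus motif, searched on both strands, occurred in 3 member genes, Serpina3g, Serpina3i and Serpina3n, beside 1.89% of all genes. A match is only a match of letters in this window.

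The promoters of Serpinb8, the 1 well expressed gene of the chromosome 1 cluster, and of Serpinb7 are shown with the TGANTCA matches in capitals. Serpinb8 has a match that begins 23 bases before the start site and another that begins 13 bases after it, and Serpinb7 has a match that begins 45 bases before.
Serpinb8, chr1:107589756-107590055, plus strand: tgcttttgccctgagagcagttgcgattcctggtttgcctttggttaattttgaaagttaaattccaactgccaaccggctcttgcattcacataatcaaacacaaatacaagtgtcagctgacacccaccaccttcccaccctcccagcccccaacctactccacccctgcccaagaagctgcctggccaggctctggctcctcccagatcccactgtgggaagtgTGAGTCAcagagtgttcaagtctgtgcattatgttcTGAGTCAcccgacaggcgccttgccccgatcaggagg
Serpinb7, chr1:107422439-107422738, plus strand: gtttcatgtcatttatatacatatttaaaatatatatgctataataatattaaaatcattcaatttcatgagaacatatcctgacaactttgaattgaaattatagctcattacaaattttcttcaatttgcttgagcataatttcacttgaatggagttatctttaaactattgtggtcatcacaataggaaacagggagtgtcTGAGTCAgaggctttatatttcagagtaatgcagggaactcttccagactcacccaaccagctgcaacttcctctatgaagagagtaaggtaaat

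In clade a, reads came almost entirely from the Serpina3 stem on chromosome 12, relatives of human antichymotrypsin. The cluster spans 103616675 to 104414329 and holds 24 genes, of which 13 had a read and 4 were measured. The 6 genes of the Serpina1 stem, the antitrypsin genes of liver, had 4, 1 and 4 reads in all. The Serpina3 stem had 158, 54 and 175 reads summed. It was 2.91-fold lower (2.12 to 4.04) in TPA than in control, 3.27-fold higher (2.40 to 4.52) in CDDO+TPA than in TPA, and did not differ beyond counting error between CDDO+TPA and control (1.12-fold, 0.902 to 1.40).

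The genes of that stem differed from each other in their TPA values. Serpina3g, an intracellular inhibitor of lysosomal cathepsins studied in T cells, had 108, 22 and 56 reads. It was 4.88-fold lower (3.06 to 8.11) in TPA than in control and 2.57-fold higher (1.54 to 4.42) in CDDO+TPA than in TPA, and stayed below control. Serpina3h had 24, 23 and 86 reads, with control and TPA alike in counts, and was 3.77-fold higher (2.36 to 6.27) in CDDO+TPA than in TPA. Serpina3f had 13, 0 and 6 reads, at least 4.31-fold lower in TPA than in control against the floor of 3 counts. Serpina3i had 10, 7 and 19 reads, and Serpina3n, an acute-phase gene of many tissues, had 3, 2 and 6. Serpina3g and Serpina3f share a start and 147 exonic bases, and 15.0% of the 50-base windows of Serpina3g and 21.9% of those of Serpina3h recur within the stem.

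The promoters of Serpina3g and Serpina3i are shown because both hold the NF-kB consensus motif, in capitals, beginning 85 and 154 bases before the start site. The RefSeq start used for Serpina3g is a downstream one, not the start it shares with Serpina3f in the count table.
Serpina3g, chr12:104235897-104236196, plus strand: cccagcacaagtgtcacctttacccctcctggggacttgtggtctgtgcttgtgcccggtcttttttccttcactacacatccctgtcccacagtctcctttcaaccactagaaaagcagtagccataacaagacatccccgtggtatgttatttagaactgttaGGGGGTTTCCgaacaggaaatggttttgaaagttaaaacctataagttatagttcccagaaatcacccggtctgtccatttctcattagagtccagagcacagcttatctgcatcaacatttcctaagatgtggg
Serpina3i, chr12:104262872-104263171, plus strand: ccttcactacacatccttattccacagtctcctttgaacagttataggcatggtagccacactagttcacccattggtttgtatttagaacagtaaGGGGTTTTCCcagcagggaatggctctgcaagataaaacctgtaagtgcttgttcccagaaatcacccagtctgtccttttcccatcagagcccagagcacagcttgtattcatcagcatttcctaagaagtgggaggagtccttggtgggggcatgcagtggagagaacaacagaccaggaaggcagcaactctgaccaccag

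Serpinh1, the collagen chaperone HSP47, was the most abundant serpin by CPM in control and TPA. It had 2092, 1958 and 1598 reads, or 261, 246 and 202 CPM. It was 1.06-fold lower in TPA than in control (0.998 to 1.13) and 1.21-fold lower (1.14 to 1.30) in CDDO+TPA than in TPA. Per kilobase the order among abundant members was different: in the control library Serpinf1 had 160 RPKM (CPM per kilobase of exon), Serpinh1 107, Serpinb6a 98.0, Plaur 81.2 and Plat 40.0 RPKM. In the CDDO+TPA library the values were 134, 82.8, 114, 114 and 34.2 RPKM in that order of genes.

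Serpini1 (neuroserpin), an inhibitor of tissue plasminogen activator best known from neurons, had 12, 18 and 76 reads. It was 4.26-fold higher (2.52 to 7.57) in CDDO+TPA than in TPA and 6.43-fold higher (3.48 to 12.99) in CDDO+TPA than in control, while control and TPA did not differ beyond counting error (1.51-fold, 0.688 to 3.43). Its neighbours Pdcd10, with 420, 343 and 335 reads, and Golim4, with 1510, 1144 and 1773 reads, were not past the rule. Serpini2 had 0 reads in every library.

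Genes around the serpins were read from 5 lists of 122 symbols, 121 of them matched as separate genes and 73 measured. In TPA against control 6 of the 73 were higher and 17 lower past the rule, in CDDO+TPA against TPA 8 and 8, and in CDDO+TPA against control 4 and 6. Over all measured genes the shares higher and lower were 9.57% and 5.91%, 7.87% and 7.78%, and 8.02% and 3.37% in the same order of comparisons, and the counts of single lists below are to be read beside them. Among 20 measured genes of the plasminogen system and its receptors, 0 were higher and 4 lower in TPA, with a median log2 fold change of -0.43. Plg, the plasminogen gene, had 0, 1 and 0 reads and Vtn, the gene of vitronectin, had 0 in every library. Lrp1, which clears serpin-protease complexes, had 843, 623 and 780 CPM, and its chaperone Lrpap1 had 137, 91.3 and 126 CPM. Anxa2 and S100a10, which form a plasminogen receptor, had 214, 222 and 221 CPM and 81.2, 94.9 and 76.4 CPM.

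Lower genes of that list included receptors that take up serpin complexes or lipoproteins, or bind vitronectin. Lrp2 had 21.6, 4.27 and 2.53 CPM and was 5.06-fold lower (3.49 to 7.54) in TPA than in control. Vldlr had 276, 92.8 and 176 CPM, and the integrin gene Itgb5 was 2.07-fold lower (1.91 to 2.24). Lrp8, another receptor of the family, had 57.8, 63.3 and 156 CPM and was 2.47-fold higher (2.22 to 2.74) in CDDO+TPA than in TPA.

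Among 22 measured serine proteases and coagulation genes, 5 were higher and 7 lower in TPA against control (median log2 fold change -0.54), and 5 were higher and 5 lower in CDDO+TPA against TPA (median 0.52). Thbd, thrombomodulin, which switches thrombin to anticoagulant activity, had 246, 108 and 250 CPM. Pros1, protein S, had 72.3, 24.6 and 98.2 CPM and was 3.99-fold higher (3.41 to 4.69) in CDDO+TPA than in TPA. Masp1, a complement lectin-pathway protease, had 54, 10 and 87 reads, a level 8.78-fold higher (4.55 to 19.0) in CDDO+TPA than in TPA. Procr, the endothelial protein C receptor, had 15.6, 25.7 and 37.6 CPM. The complement protease gene C1ra had 173, 64.2 and 111 CPM, and the matrix serine protease gene Htra1 had 29.2, 8.79 and 13.2 CPM. Gzmb, the gene of the protease that SERPINB9 traps, had 0, 1 and 0 reads, Ctsg had 0 in every library and Elane had 0, 0 and 2. Gzmb, Ctsg and Elane were thus close to undetected in these cells. Which proteases the further copies of Serpinb9 trap, and the levels of those proteases, were not examined.

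Of 8 measured inhibitors outside the serpin family, Slpi, a secreted elastase inhibitor, had 47.4, 23.4 and 64.5 CPM and was 2.76-fold higher (2.33 to 3.28) in CDDO+TPA than in TPA. Its 2.03-fold lower level (1.70 to 2.43) in TPA than in control left the size rule with library totals or upper-quartile scaling. Of 6 measured cathepsin genes, 0 were higher in TPA and 1 was lower, Ctso with 12.2, 3.64 and 6.72 CPM. Ctsw had 14.4, 8.16 and 2.03 CPM and was 4.03-fold lower (2.30 to 7.45) in CDDO+TPA than in TPA. The lysosomal cathepsin genes Ctsb and Ctsl, named for their abundance, had 520, 471 and 513 CPM and 292, 302 and 341 CPM, close across libraries.

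Of 17 collagen folding partners of Serpinh1, 4 were lower and 0 higher in TPA against control, with a median log2 fold change of -0.25. They included the prolyl 3-hydroxylase genes P3h1 with 39.7, 14.6 and 27.1 CPM, P3h2 with 63.1, 23.4 and 33.7 CPM, and P3h3 with 32.2, 14.9 and 30.2 CPM. In CDDO+TPA against TPA 1 was higher, P3h3, 2.02-fold (1.61 to 2.54), and it left the size rule with library totals, upper-quartile scaling or a prior count of 5. Serpinh1 itself was not past the rule in a comparison.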

How the data were processed

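RNA from 3 cultures, 1 library per group, was analysed. The authors deposited raw gene counts, which are whole numbers. Per the file headers, featureCounts 1.5.3 counted primary alignments over mm10 genes from UCSC, and no setting for strandedness or for reads that meet several genes is named. The submitters' processing notes name HISAT2, Picard and DESeq. Per the file headers, columns bear a tag for removed duplicates. The deposited exonic gene length gave the values per kilobase.

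Scaling used edgeR 4.0.16 (R 4.3.3) and its TMM factors, which were 0.978, 1.02 and 1.00. Log2 CPM used a prior count of 2, which narrows differences of genes with few reads. Folds are CPM ratios without it, with exact conditional binomial (Clopper-Pearson) intervals at 95%, computed in scipy 1.17.1 and checked on simulated libraries. Clusters joined members of 1 clade within 1 Mb, and stems joined symbols with the same clade letter and number. Alternatives were DESeq2 1.42.0 size factors, library totals, upper-quartile factors, a prior count of 5, other filters and widened intervals.

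Members and lists were chosen with earlier results of these data known. Named members were the plasminogen genes, Serpine2, Serpinh1 and Serpinb2, members with at least 10 CPM, and those with at least 20 reads past the size rule. From the lists, genes with at least 10 CPM past the rule and 5 fixed receptors and partners were named. Other members and genes, neighbours included, were named after their values were seen. Some genes the rule takes are not reported here, but counts, medians and sums include them.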

Additional observations from a re-analysis of the deposited data

How the results depend on the processing

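With DESeq2 size factors, library totals, upper-quartile factors or a prior count of 5, no named member past the size rule and no sum over a stem, clade or cluster changed direction. Serpina3h in TPA against control, not past the rule, was -0.05 on the log2 scale and 0.01 with library totals or upper-quartile factors. Requiring a mean of at least 10 CPM left 10 members, fewer than the 28 measured. Their counts were then 1 higher and 1 lower for TPA against control, and 3 higher and 1 lower for CDDO+TPA against TPA. For CDDO+TPA against control they were 3 higher and 1 lower, the lower one being Serpinf2. Over all genes that filter gave 381 higher and 476 lower, 522 and 227, and 507 and 165 for the same comparisons, in place of 1254 and 774, 1031 and 1019, and 1051 and 442. How many genes in all pass that filter is not given here, so these counts give no share to set beside the members. When the intervals were widened for a spread between cultures, with a coefficient of variation set at 0.4, 2 members were higher and 2 lower for TPA against control, 12 higher and 2 lower for CDDO+TPA against TPA, and 8 were higher and 0 lower for CDDO+TPA against control. The counts over all genes were then 638 and 241, 388 and 539, and 439 and 150. Without Serpinb6a, an alternative chosen after seeing the data, log2 fold changes of the chromosome 13 cluster were -0.79, 2.27 and 1.49, beside -0.29, 1.06 and 0.76 with it. Counting reads without length, Serpinf2 over Serpinf1 was 0.0492, 0.706 and 0.0209, in the same order of libraries. Joining genes within 200 kb gave 4 clusters in place of 5. No paired analysis was possible because each group has 1 library, and no replicate could be left out. Depth limits Plau, Serpinb2, Serpine2 and other genes near 0 reads, for which no difference was detectable.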
